A study of Drosophila melanogaster with 9 samples.

Results

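The genes described here encode heat shock proteins and cochaperones of Drosophila melanogaster. They were chosen by name as rows present in both tables of raw read counts: 10 genes of 17806 in all. They are the small heat shock genes Hsp22, Hsp23, Hsp26 and Hsp27, the Hsp70 family genes Hsp68, Hsp70Ba, Hsp70Bb and Hsc70-4, the Hsp90 gene Hsp83, and DnaJ-1, which encodes a J-domain cochaperone. Of these, 9 passed the filter on low counts in each comparison, and Hsp22 had no count in any library.

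The study concerns the part that Swm, a protein that binds RNA, plays in maintaining the progenitor cells of the adult fly intestine. RNA was sequenced from GFP-positive progenitors sorted from 100 female flies per replicate. There were 3 libraries labelled swm RNAi, with RNA interference against swm, and 3 control libraries labelled wild type and titled esgTS. That title usually names a temperature-sensitive driver built on the progenitor gene esg, which the labels do not spell out. The titles of the swm RNAi libraries do not name a driver. A second experiment, labelled CLIP-seq, used whole dissected intestines of flies labelled wild type: 2 Swm immunoprecipitates (Swm IP) and 1 input, a portion of the total extract. All libraries were depleted of ribosomal RNA. Only the sorted cells went through digestion in elastase, for 1 hour at 27 °C. The sources used here do not give the ages of the flies or the RNAi line, and each sorted replicate pooled many animals.

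Heat shock proteins are molecular chaperones. Small heat shock proteins hold unfolding proteins in a soluble state, Hsp70 proteins refold them in cycles of ATP hydrolysis that J-domain proteins stimulate, and Hsp90 completes the folding of kinases and receptors. In flies, heat and other proteotoxic stress activate the heat shock factor Hsf, which induces most of these genes, while Hsc70-4 and Hsp83 are transcribed abundantly without stress.

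Library totals were 14627251 to 19399264 counts in the libraries labelled swm RNAi and 19428033 to 19962224 counts in control. They were 2451369 and 8497190 counts in the Swm IP libraries, against 4615623 counts in the input. The swm transcript was not lower in the libraries labelled swm RNAi, with a log2 fold change of -0.0036 (edgeR adjusted p = 0.998), so each direction below is that of the libraries carrying this label. Progenitor markers (6 genes, among them esg and Dl) summed to 4410 to 5411 CPM (counts scaled to a fixed library total) in those libraries and 3248 to 5418 CPM in control. Enterocyte markers (7 genes, among them nub and Myo31DF) summed to 355 to 560 CPM against 353 to 411 CPM. Within this sum, the trypsin gene betaTry had 86.4, 91.3 and 278 CPM against 13.5, 49.1 and 68.1 CPM, and Myo31DF had 259, 247 and 239 CPM against 331, 282 and 316 CPM. The groups did not overlap for either, in opposite directions, and neither passed the test (log2 fold changes 1.80 and -0.32, edgeR adjusted p = 0.470 and 0.473). Enteroendocrine markers (6 genes, among them pros and Tk) summed to 5.96 to 9.43 CPM against 4.65 to 10.6 CPM. Visceral muscle markers (7 genes, among them Mhc and Act57B) summed to 874 to 992 CPM against 631 to 1234 CPM, nearly all of it from Tm1, without which the other 6 summed to 5.90 to 15.0 CPM against 11.8 to 19.0 CPM. In control replicate 3, 5 of the 6 enteroendocrine, 3 of the 7 muscle and 2 of the 7 enterocyte markers had no count. That library had the largest total of the progenitor libraries but the fewest genes detected, as genes with no count ranked at 8678 there. Their rank was 9362 and 10828 in control replicates 1 and 2, and 10092 to 11085 in libraries labelled swm RNAi. The part of this in the members' levels was not tested.

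The members lie on both arms of chromosome 3 (BDGP6 annotation). Hsp22, Hsp26, Hsp23 and Hsp27 fill 12.8 kb of 3L, from 9372931 to 9385694. Hsp70Ba (3R, 12465453 to 12467776) and Hsp70Bb (3R, 12505793 to 12508139) belong to a group of near-identical Hsp70 copies within 46.0 kb, and Hsp68 lies apart at 24055080 to 24057310 on 3R. Hsc70-4 (3R, 15242687 to 15246614) has 4 introns and Hsp83 (3L, 3192969 to 3197059) has 1. DnaJ-1 (3L, 5750029 to 5752189) has none, and neither do Hsp23, Hsp26, Hsp27, Hsp68, Hsp70Ba or Hsp70Bb.

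In sorted progenitors, no member passed the test between the libraries labelled swm RNAi and control. The stress-induced Hsp70 genes Hsp70Ba and Hsp70Bb had the largest positive log2 fold changes of the members, 1.02 and 0.75, and the constitutive genes Hsc70-4 and Hsp83 had values of -0.17 and -0.19. Over the 9 tested members, 0 were called higher and 0 lower (edgeR quasi-likelihood test, adjusted p below 0.05), beside 2.34% of 8899 genes called higher and 0.832% called lower. At an unadjusted p below 0.05, 2 of the 9 members passed, beside 12.4% of all genes, and DESeq2 called 1 member higher, Hsp70Ba, beside 3.06% of all genes. The members' median log2 fold change was 0.43 and that of all genes was 0.03. These are bulk samples, in which fewer cells of a type and less RNA per cell cannot be told apart.

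**Figure D1:**
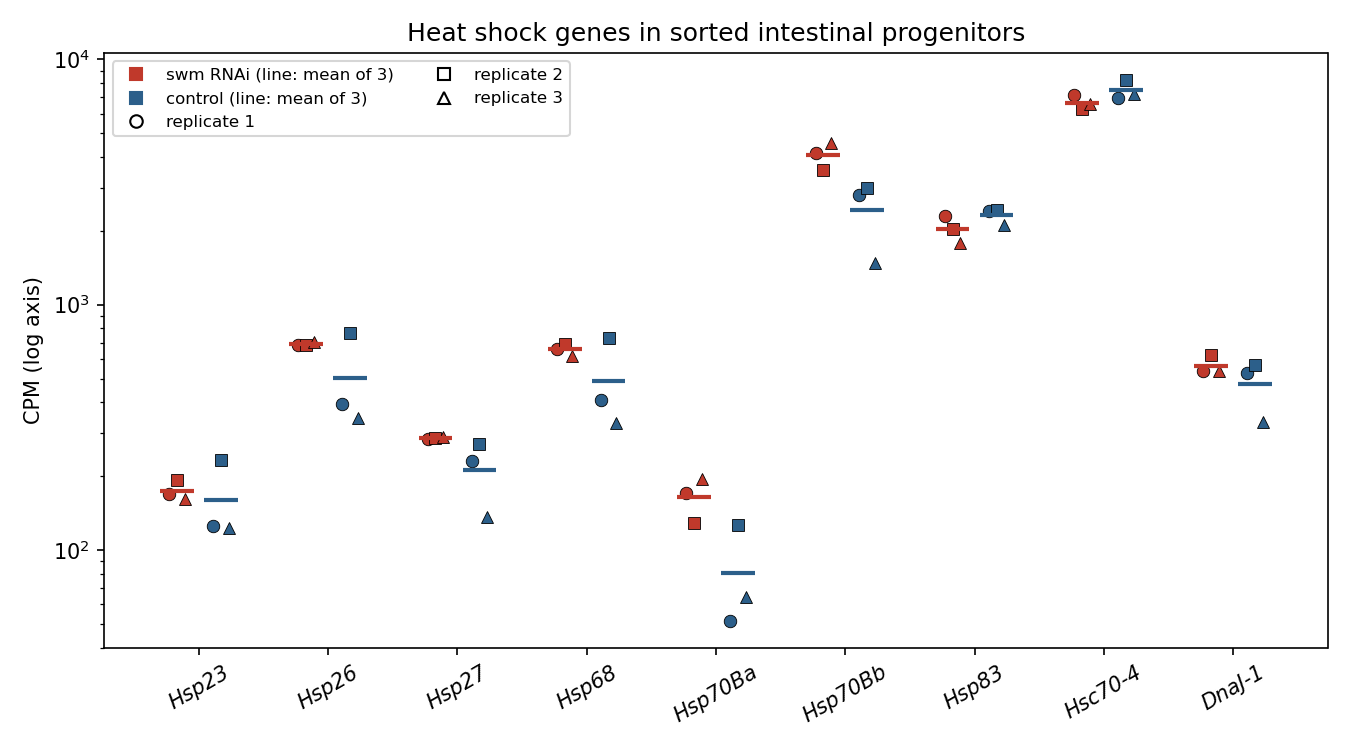
CPM, on a log axis, of the 9 detected members in sorted progenitors. Points are libraries (swm RNAi left of control; the marker shape gives the replicate), and lines are means of 3. Hsp70Bb lies between 3531 and 4576 CPM in libraries labelled swm RNAi and between 1483 and 2998 CPM in control, and control points are spread more widely than swm RNAi points for 8 of the 9 genes.

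Among the small heat shock genes, Hsp26, a cytoplasmic holdase, had 686, 687 and 707 CPM in libraries labelled swm RNAi, and the control replicates 1, 2 and 3 held 393, 765 and 345 CPM. The first group was tight and lay inside the range of the second, with control replicate 2 above it and the other two controls below. The log2 fold change was 0.47 (SE 0.27, edgeR adjusted p = 0.579). Hsp27, which is found in the nucleus as well as the cytoplasm, had 284, 286 and 288 CPM in libraries labelled swm RNAi, against 231, 272 and 136 CPM in control. Those groups did not overlap, by a small margin (log2 fold change 0.43, SE 0.23, edgeR adjusted p = 0.529). For Hsp23, another small cytoplasmic chaperone, the libraries labelled swm RNAi held 170, 193 and 161 CPM and the controls 125, 232 and 123 CPM. Control replicate 2 was again the highest, the groups overlapped, and the log2 fold change was 0.13 (SE 0.24, edgeR adjusted p = 0.922).

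No fold change can be given for Hsp22, a small heat shock protein of mitochondria. It had 0 counts in all 9 libraries, where a count of 0 allows up to 0.147 to 0.210 CPM in a progenitor library and up to 0.329 to 1.15 CPM in an intestine library, for counting error only. In the annotation its exons, 1900 bases in all (3L, 9372931 to 9374964, plus strand), lie wholly within exons of CG4456 on the same strand. CG4456 had 0 counts in all 3 libraries labelled swm RNAi and 10, 13 and 0 counts in control, and 0 counts in all the intestine libraries. The sources used here do not say how reads in overlapping genes were assigned, so the zeros cannot be told apart from reads left uncounted.

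Hsp68, a stress-induced member of the Hsp70 family outside the Hsp70A and Hsp70B copies, had 659, 694 and 620 CPM in libraries labelled swm RNAi, against 409, 729 and 329 CPM in control. As for Hsp26, control replicate 2 stood above all 3 libraries labelled swm RNAi and the other controls stood below them. The log2 fold change was 0.43 (SE 0.26, edgeR adjusted p = 0.613).

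Hsp70Bb carried most reads of the inducible Hsp70 copies in progenitors. It had 4141, 3531 and 4576 CPM in libraries labelled swm RNAi, and the control replicates 1, 2 and 3 held 2804, 2998 and 1483 CPM. Every library labelled swm RNAi was above every control, and its log2 fold change of 0.75 did not pass (SE 0.25, 95% interval 0.20 to 1.30, edgeR adjusted p = 0.184). Ranked among all genes by CPM, Hsp70Bb stood at places 13 to 26 in the libraries labelled swm RNAi and at places 36 to 129 in control. Hsp70Ba had 170, 128 and 195 CPM in libraries labelled swm RNAi, against 51.5, 127 and 64.4 CPM in control. Here the lowest library labelled swm RNAi was barely above control replicate 2, and the fold change of 1.02 on the log2 scale did not pass (SE 0.33, 95% interval 0.27 to 1.78, edgeR adjusted p = 0.192). In all, 3 of the 9 members (Hsp27, Hsp70Ba and Hsp70Bb) were higher with no overlap between groups, beside 12.3% of all genes tested, and 0 were lower with no overlap, beside 7.94%.

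The calls on the Hsp70 genes depended on the test. In the authors' deposited table, made with DESeq2, Hsp70Ba had a log2 fold change of 0.99 and an adjusted p of 0.0294, and Hsp70Bb had an adjusted p of 0.0664. With no filter on low counts, edgeR called Hsp70Ba (adjusted p = 2.71e-05) and Hsp70Bb (adjusted p = 0.00835), beside 2.71% of all genes called higher. Of 13 alternatives that tested each gene by itself, Hsp70Ba was called in 3 and Hsp70Bb in 1.

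Hsc70-4, the cognate Hsp70 of unstressed cells, had 7146, 6255 and 6546 CPM in libraries labelled swm RNAi, against 6977, 8232 and 7241 CPM in control. It was among the 9 genes with the highest CPM in each progenitor library, and its groups overlapped (log2 fold change -0.17, SE 0.16, 95% interval -0.52 to 0.18, edgeR adjusted p = 0.794). Hsp83, the cytosolic Hsp90, had 2295, 2033 and 1779 CPM in libraries labelled swm RNAi, against 2410, 2431 and 2113 CPM in control. Its groups overlapped as well (log2 fold change -0.19, SE 0.17, 95% interval -0.56 to 0.19, edgeR adjusted p = 0.784). DnaJ-1, the Hsp40 that stimulates Hsp70, had 534, 622 and 536 CPM in libraries labelled swm RNAi, against 525, 565 and 333 CPM in control. Only control replicate 3 was well below the rest, and the log2 fold change was 0.25 (SE 0.21, edgeR adjusted p = 0.764).

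The control libraries differed among themselves in these genes. Control replicate 2 was the highest control for all 9 detected members, and control replicate 3 was the lowest for 7 of them, the exceptions being Hsp70Ba and Hsc70-4. The coefficient of variation of Hsp27 was 0.624% over the libraries labelled swm RNAi and 32.7% over the controls, and that of Hsp26 was 1.70% against 46.0%. The SD of log2 CPM was larger in control for 8 of the 9 members, with Hsp83 the exception, and was larger in control for 74.8% of all genes tested, so the same held for most genes. Control replicate 2 also had the lowest progenitor marker sum (3248 CPM, where control replicates 1 and 3 had 5418 and 4323). The widest gap was in hdc, with 521 CPM against 1952 and 1158 CPM. The marker esg was not lowest there (1561 CPM against 1726 and 1399 CPM). Sox21a was nearly level (381 CPM against 386 and 417 CPM), and Dl, N and klu were lowest in control replicate 2. The part of these marker levels in the members' levels was not tested. Leaving out control replicate 2, the highest control for all 9, raises the members' fold changes by construction. Without it, Hsp26 (log2 fold change 0.90, edgeR adjusted p = 0.0159), Hsp68 (0.83, adjusted p = 0.0337) and Hsp70Ba (1.496, adjusted p = 0.00678) were called higher. These are 3 of the 9 members, beside 2.11% of all genes, and the calls are no separate support for a change. Without control replicate 3 no member was called, and these log2 fold changes were smaller than over all 6 libraries: 0.26 for Hsp26, 0.21 for Hsp68, 0.19 for Hsp27, 0.05 for DnaJ-1, 0.49 for Hsp70Bb and 0.89 for Hsp70Ba. Without control replicate 1 none was called either, with 0.30 for Hsp26, 0.29 for Hsp68 and 0.76 for Hsp70Ba.

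**Figure D2:**
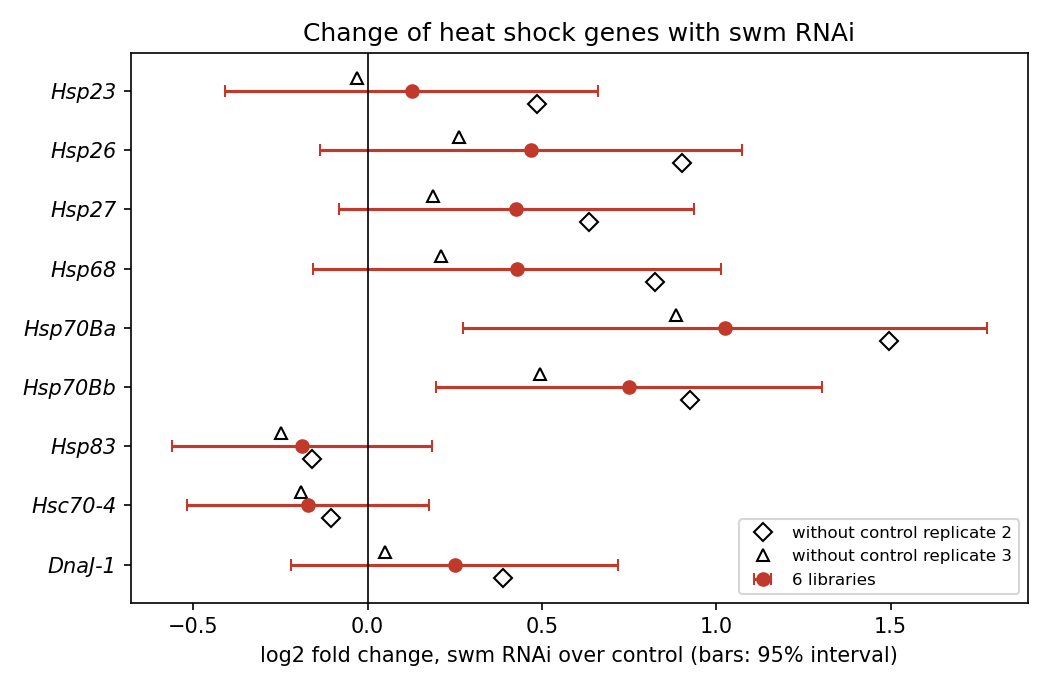
Log2 fold change of each detected member, swm RNAi over control, with its 95% interval over 6 libraries (filled circles), and the value without control replicate 2 (diamonds) or 3 (triangles). The interval of Hsp70Ba runs from 0.27 to 1.78 and that of Hsp70Bb from 0.20 to 1.30, while every other interval crosses 0; the diamonds of Hsp26 and Hsp68 stand at 0.90 and 0.83.

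Over the 6 progenitor libraries, Hsp26 and Hsp68 were the members most alike, with a mean absolute difference of 0.06 between their centred log2 CPM. The gene outside the members nearest to each of them was cbc, at 0.06 for Hsp26 and 0.05 for Hsp68. The nearest were CG3732 for Hsp23 (0.02), CG7382 for Hsp27 (0.04), Sirup for Hsp70Bb (0.09), alpha4GT1 for Hsp70Ba (0.14), Sec23 for Hsp83 (0.03), Jwa for Hsc70-4 (0.02) and Atg3 for DnaJ-1 (0.03). The median difference from all genes ran from 0.33 for Hsc70-4 to 0.70 for Hsp70Ba. These likenesses are descriptions over 6 libraries of 2 groups.

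The 6 near-identical Hsp70 copies can exchange reads in counting, so their sum is more certain than any single copy. Hsp70Bb took 74.7%, 73.6% and 75.8% of the copies' counts in the libraries labelled swm RNAi, against 73.1%, 68.3% and 72.1% in control, and Hsp70Ab took 20.5% to 23.1% against 23.2% to 27.9%. The sum was 5541, 4801 and 6034 CPM in libraries labelled swm RNAi, against 3838, 4389 and 2058 CPM in control. The groups did not overlap, but the summed feature did not pass the test (log2 fold change 0.67, edgeR adjusted p = 0.272). The copies outside the members went both ways, and none passed. Hsp70Ab and Hsp70Aa each had a log2 fold change of 0.42, while Hsp70Bbb had -0.29 and Hsp70Bc -0.52. Of these, Hsp70Bc had mean levels of 12.7 CPM in libraries labelled swm RNAi and 18.3 CPM in control, and Hsp70Bbb 4.41 and 5.40 CPM. Per kilobase of exon, the copies' summed level was 0.895, 0.886 and 1.06 times that of Hsc70-4 in the libraries labelled swm RNAi, and 0.635, 0.615 and 0.328 times in control. The counted level of the inducible copies was thus near that of Hsc70-4 in the first group and below it in every control. This is a description of counts with no test. Reads that match several copies may have been left uncounted, which would lower the copies' sum against Hsc70-4. Reads from other sequences that match a copy, if counted on it, would raise the sum and the level of that copy. Neither was tested.

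**Figure D3:**
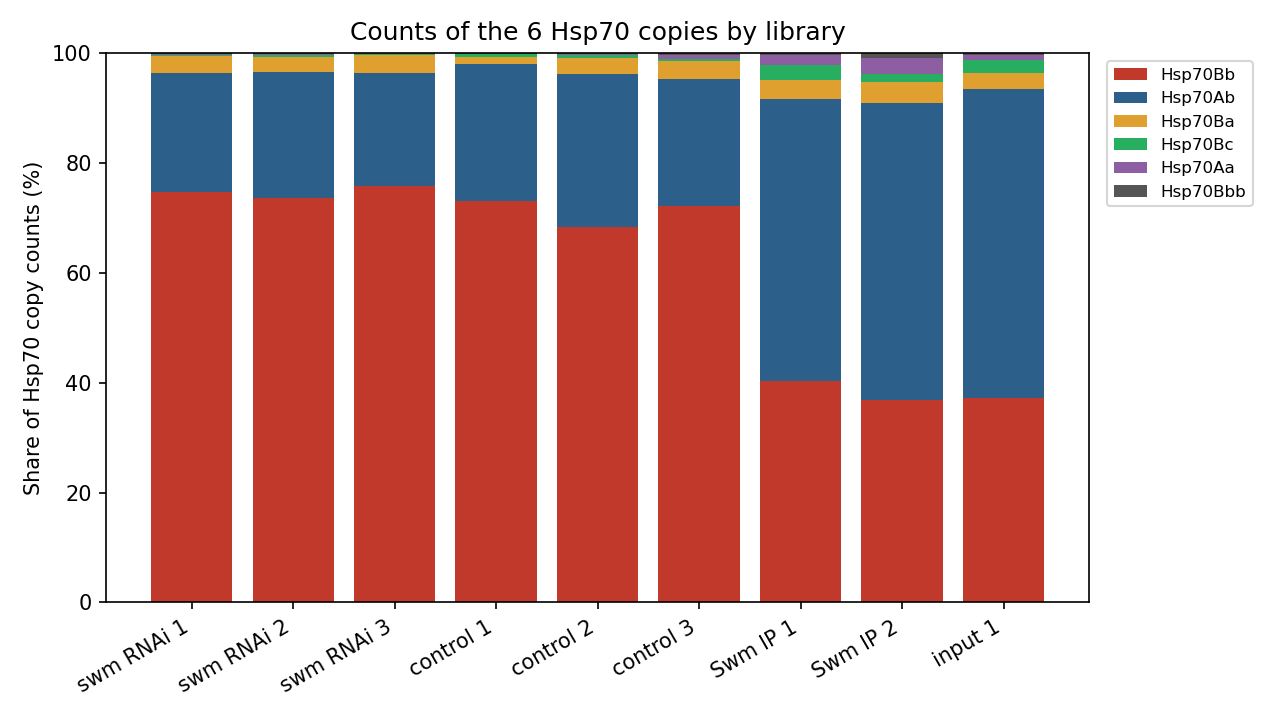
Share of counts, in percent, taken by each of the 6 Hsp70 copies in each of the 9 libraries. Hsp70Bb holds 68.3% to 75.8% in the progenitor libraries, whereas Hsp70Ab holds the largest share in the intestine libraries, 51.4% and 54.0% in the Swm IP libraries and 56.2% in the input.

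The other genes of the chaperone machinery showed no call in progenitors. Of 56 tested, 0 passed the test (edgeR, adjusted p below 0.05; 1 at an unadjusted p below 0.05 and 0 with DESeq2), with 20 positive and 36 negative log2 fold changes and a median of -0.07. The one was nudC, which encodes an Hsp90 cochaperone (log2 fold change 0.48, edgeR adjusted p = 0.168), chosen here after its value was seen. Among the 7 other Hsp70 copies and cognates, Hsp70Ab had 1180 ± 67.4 CPM in libraries labelled swm RNAi and 885 ± 377 CPM in control (SD, n = 3 each), and Hsc70Cb, an Hsp110-type exchange factor, had 432 ± 44.8 CPM and 483 ± 67.1 CPM. None of the 3 other small heat shock genes, 18 J-domain genes, 16 Hsp90 family genes and cochaperones or 10 chaperonin genes passed. Their 2 most abundant genes were CG14207 (-0.15) and Hsp67Bc (0.80), Droj2 (-0.04) and Tpr2 (0.16), p23 (-0.06) and Stip1 (-0.06), and Hsp60A (-0.04) and CCT2 (0.002), as log2 fold changes.

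The regulator Hsf itself had 91.3 ± 5.54 CPM in libraries labelled swm RNAi and 95.7 ± 12.4 CPM in control (SD, n = 3 each; log2 fold change -0.07, edgeR adjusted p = 0.937). The heat-inducible noncoding RNA lncRNA:Hsromega had 2256, 2472 and 1975 CPM in libraries labelled swm RNAi, against 5422, 2073 and 3245 CPM in control. Its high value was in control replicate 1, not in the replicate that was high for the heat shock genes, and its log2 fold change was -0.68 (edgeR adjusted p = 0.401). Of 11 genes of endoplasmic reticulum stress, 0 passed the edgeR test (adjusted p below 0.05; 2 at an unadjusted p below 0.05 and 0 with DESeq2). The 2 most abundant were crc, the fly ATF4 (809 ± 66.4 CPM in libraries labelled swm RNAi and 559 ± 115.4 CPM in control, SD, n = 3 each), and Xbp1, the transcription factor downstream of Ire1 (376 ± 21.5 CPM and 349 ± 49.4 CPM).

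In the Swm immunoprecipitates, the stress-induced genes Hsp26, Hsp68 and Hsp70Bb were lower than in the input, with log2 ratios of -1.15, -0.92 and -1.53. Hsp23, Hsp27 and Hsp70Ba had ratios of -1.17, -0.36 and -1.28 and did not pass the test. The abundant genes Hsc70-4 and Hsp83 and the cochaperone gene DnaJ-1 had ratios of 0.20, -0.15 and -0.22 and did not pass either. Over the 9 tested members, 0 were called higher and 3 lower (edgeR, adjusted p below 0.05), beside 9.25% of 8375 genes called higher and 8.97% called lower. Of all genes, 775 were higher and 751 lower, and with unscaled library sizes 1114 and 417, where 2 members were lower, beside 4.98% of all genes. The members' median log2 ratio was -0.92 and that of all genes was 0.004. The fit has 1 residual degree of freedom, from the 2 IP libraries, and takes the spread of the single input to be like theirs. At an unadjusted p below 0.05, 4 of the 9 members passed, beside 29.3% of all genes.

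For Hsp70Bb the counts came to 68.0 and 55.1 CPM in the Swm IP libraries, against 177 CPM in the input. Both IP libraries were well below the input (log2 ratio -1.53, SE 0.28, edgeR adjusted p = 1.04e-05). Hsp26 had 92.6 and 99.2 CPM in the Swm IP libraries, against 213 CPM in the input (log2 ratio -1.15, SE 0.27, edgeR adjusted p = 0.000484). Hsp68 had 54.6 and 63.7 CPM in the Swm IP libraries, against 112 CPM in the input (log2 ratio -0.92, SE 0.31, edgeR adjusted p = 0.0224). The IP libraries agreed closely for these 3 genes. The authors' deposited table gave an adjusted p of 0.00320 for Hsp70Bb, 0.0210 for Hsp26 and 0.164 for Hsp68.

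Hsp70Ba rested on few reads, 15 and 53 counts in the Swm IP libraries and 57 in the input, or 5.76 and 5.82 CPM against 14.1 CPM (log2 ratio -1.28, SE 0.76, edgeR adjusted p = 0.261). Hsp23 had 7.30 and 13.6 CPM in the Swm IP libraries, against 24.2 CPM in the input (log2 ratio -1.17, SE 0.58, edgeR adjusted p = 0.161). For Hsp27 the values were 31.1 and 34.4 CPM in the Swm IP libraries and 42.3 CPM in the input (log2 ratio -0.36, SE 0.41, edgeR adjusted p = 0.602). All 3 genes were below the input in both IP libraries without passing the test.

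Hsc70-4, Hsp83 and DnaJ-1 lay nearer to the input. Hsc70-4 had 3644 and 3666 CPM in the Swm IP libraries, against 3177 CPM in the input, the only member above it in both (log2 ratio 0.20, SE 0.33, 95% interval -0.45 to 0.85, edgeR adjusted p = 0.736). Hsp83 had 1985 and 1956 CPM in the Swm IP libraries, against 2181 CPM in the input (log2 ratio -0.15, SE 0.30, 95% interval -0.75 to 0.45, edgeR adjusted p = 0.798), and DnaJ-1 had 518 and 441 CPM against 557 CPM (log2 ratio -0.22, SE 0.26, edgeR adjusted p = 0.626). Hsc70-4 was thus 1 of 9 members above the input in both IP libraries, beside 40% of all genes, and the other 8 were below it in both, beside 41.7%. By at least 2-fold in both IP libraries, 3 members were lower (Hsp26, Hsp70Ba and Hsp70Bb), beside 10.3% of all genes, and 0 were higher, beside 11.6%.

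Over all genes the ratio followed gene length in this table, which counts over the whole gene span. With genes split by length into 4 groups of equal size, the median log2 ratio was -0.89 in the shortest group (up to 1671 bases), which holds Hsp23, Hsp26 and Hsp27, and -0.29 in the next (up to 3158 bases), which holds Hsp68, the Hsp70 copies and DnaJ-1. It was 0.18 in the group with Hsc70-4 and Hsp83 and 0.90 in the longest. With the length trend removed, 1 member was called lower, Hsp70Bb (log2 ratio -1.32, edgeR adjusted p = 0.000397), beside 6.2% of all genes, while Hsp26 had -0.25 (adjusted p = 0.724) and Hsp68 had -0.67 (adjusted p = 0.212). Hsp68 also lost its call with library sizes alone (-0.63), and with DESeq2 (-0.89) and a stricter filter (-0.83) at a ratio close to the first.

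**Figure D4:**
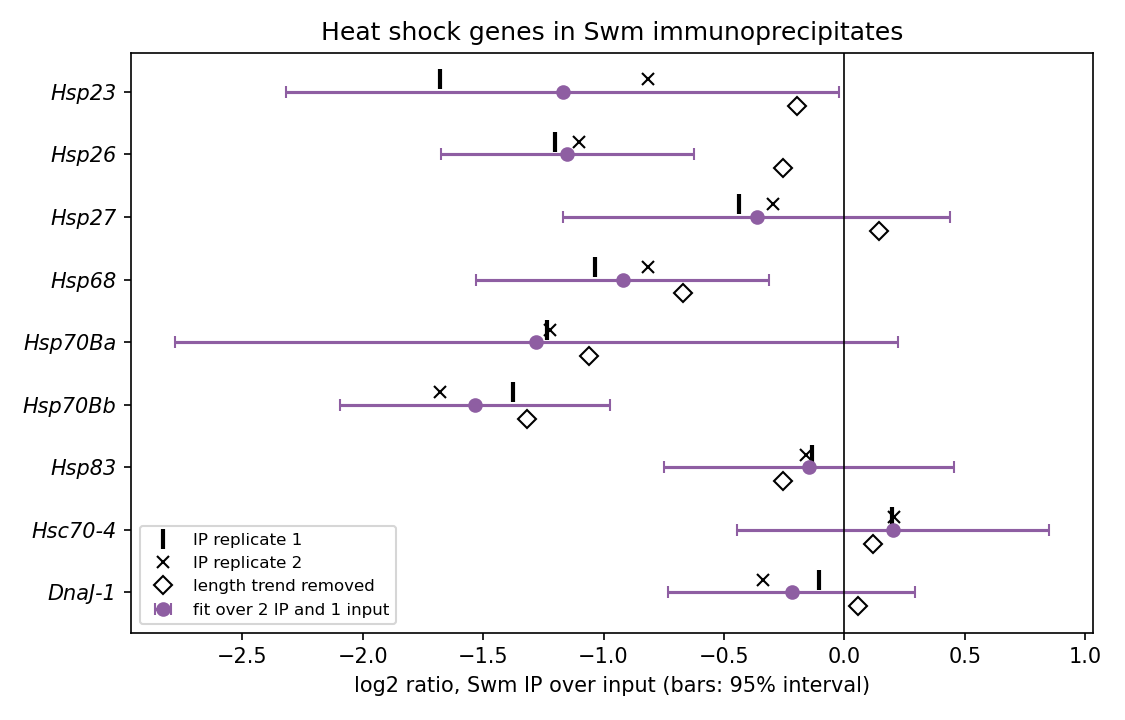
Log2 ratio of each detected member, Swm IP over input: the fit with its 95% interval (circles), each IP library (bars and crosses) and the value with the gene length trend removed (diamonds). Hsp70Bb stands at -1.53 and at -1.32 with the trend removed, whereas Hsp26 stands at -1.15 and at -0.25.

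The sum of the 6 Hsp70 copies was 169 and 149 CPM in the Swm IP libraries, against 477 CPM in the input (log2 ratio -1.59, edgeR adjusted p = 5.92e-08). Among the 58 other chaperone genes tested in the Swm IP libraries, 1 was higher and 6 lower than in the input (edgeR, adjusted p below 0.05), with a median log2 ratio of -0.33. The 6 lower are 10.3% of the list, near the 8.97% of all genes. The higher one was lncRNA:Hsromega, with 1374 and 1264 CPM in the Swm IP libraries, against 646 CPM in the input (log2 ratio 1.03, edgeR adjusted p = 0.00703). It is 21710 bases long, and with the length trend removed its ratio was -0.002. The copy Hsp70Ab was lower, with 86.9 and 80.6 CPM in the Swm IP libraries, against 268 CPM in the input (log2 ratio -1.68), also with the length trend removed. Of 16 Hsp90 family genes and cochaperones, 4 were lower (25.0%, beside the same 8.97%): Cdc37 (-1.14), which brings kinases to Hsp90, p23 (-0.87), which binds its closed form, the immunophilin gene Fkbp59 (-1.47) and Sgt (-1.28). The chaperonin list had 1 lower gene of 11 (9.09%), CG11267 (-1.36).

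With the length trend removed, Sgt kept its call, and Cdc37 (-0.77), p23 (-0.41), Fkbp59 (-1.18) and CG11267 (-0.37) lost theirs. With DESeq2 none of these 5 was called, at ratios close to those of edgeR (Cdc37 -1.11, p23 -0.83, Fkbp59 -1.45, Sgt -1.25 and CG11267 -1.32). None of the 5 was called with library sizes alone, and Pdi and ERp60, described next, were called in neither. No J-domain gene passed of 19 tested (edgeR, adjusted p below 0.05; 5 at an unadjusted p below 0.05 and 0 with DESeq2), with a median log2 ratio of 0.02. The 2 most abundant of these were Csp (0.20) and Droj2 (0.13). None of the 3 other small heat shock genes passed (edgeR, 0 at an unadjusted p below 0.05 and 0 with DESeq2). The 2 most abundant of these were CG14207 (-0.23) and CG4461 (0.02). The remaining gene, Hsp67Bc, had log2 ratios of -2.50 and -1.45 in Swm IP replicates 1 and 2, at least 2-fold lower in both. Of 11 genes of endoplasmic reticulum stress, 2 were lower (18.2%), the disulfide isomerase genes Pdi (-0.83) and ERp60 (-0.85), while in progenitors none was called. Enterocyte markers summed to 5811 and 6725 CPM in the Swm IP libraries, against 11720 CPM in the input, with 1 of 7 called higher (Alp4, log2 ratio 2.18) and 3 lower (Mal-A1, Npc2f and betaTry, -1.49, -1.82 and -1.02). Muscle markers summed to 2097 and 6959 CPM against 2225 CPM, with none called. Progenitor markers summed to 480 and 515 CPM against 267 CPM, with 1 of 6 called higher. Much of that sum was hdc, a gene of 94451 bases (295 and 283 CPM against 119 CPM). Dl, N and klu were also above the input in both IP libraries, esg only in replicate 2 and Sox21a in neither. Enteroendocrine markers summed to 85.3 and 93.5 CPM against 160 CPM, with 1 of 6 called lower. The part of these marker levels in the members' ratios was not tested.

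Set side by side per kilobase, the order of the members was similar in progenitors with and without the swm RNAi label and different in the whole intestine. Progenitor values are per kilobase of exon and intestine values per kilobase of gene span, which is longer for Hsc70-4 and Hsp83. In the libraries labelled swm RNAi, Hsc70-4 (2303 to 2631 CPM per kilobase) and Hsp70Bb (1505 to 1950) led without overlap. Hsp26 (679 to 700) lay within the range of Hsp83 (601 to 775), and Hsp68 (278 to 311) overlapped DnaJ-1 (247 to 288). Then came Hsp23 (182 to 218), Hsp27 (174 to 176) and Hsp70Ba (55.2 to 84.0). In control, Hsc70-4 (2569 to 3031 CPM per kilobase) led alone, the wide range of Hsp70Bb (632 to 1277) took in that of Hsp83 (714 to 821), and Hsp26 (341 to 758) overlapped both. Below these, DnaJ-1 (154 to 261), Hsp68 (148 to 327), Hsp23 (139 to 263) and Hsp27 (83.3 to 166) overlapped one another, and Hsp70Ba (22.2 to 54.6) was the lowest.

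In the Swm IP libraries, Hsc70-4 (928 and 933 CPM per kilobase), Hsp83 (485 and 478), DnaJ-1 (240 and 204) and Hsp26 (91.7 and 98.2) were followed by Hsp68 (24.5 and 28.6), Hsp70Bb (29.0 and 23.5) and Hsp27 (19.1 and 21.1). Hsp68 and Hsp70Bb overlapped, and Hsp23 (8.26 and 15.4) and Hsp70Ba (2.48 and 2.51) were the lowest. In the input the order was Hsc70-4 (809 CPM per kilobase), Hsp83 (533), DnaJ-1 (258), Hsp26 (211), Hsp70Bb (75.6), Hsp68 (50.3), Hsp23 (27.4), Hsp27 (25.9) and Hsp70Ba (6.07), from 1 library with no spread. The gap between materials was wide for Hsp70Bb. By mean CPM per kilobase it was second of the members in both progenitor groups, although below Hsp83 in control replicate 3. By CPM it ranked 2176 and 2497 among all genes in the Swm IP libraries and 999 in the input. The copies' summed level per kilobase was 0.0772 and 0.0677 times that of Hsc70-4 in the Swm IP libraries and 0.250 times in the input, against the 0.328 to 1.06 times of the progenitor libraries. Hsp70Bb was counted over 2347 bases in both tables, and Hsc70-4 over 2716 bases in progenitors and 3928 bases in the intestine. Cell type, the dissociation and sorting, and any difference in genotype or rearing temperature of the flies cannot be told apart in these side by side values. No test was made across the tables.

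**Figure D5:**
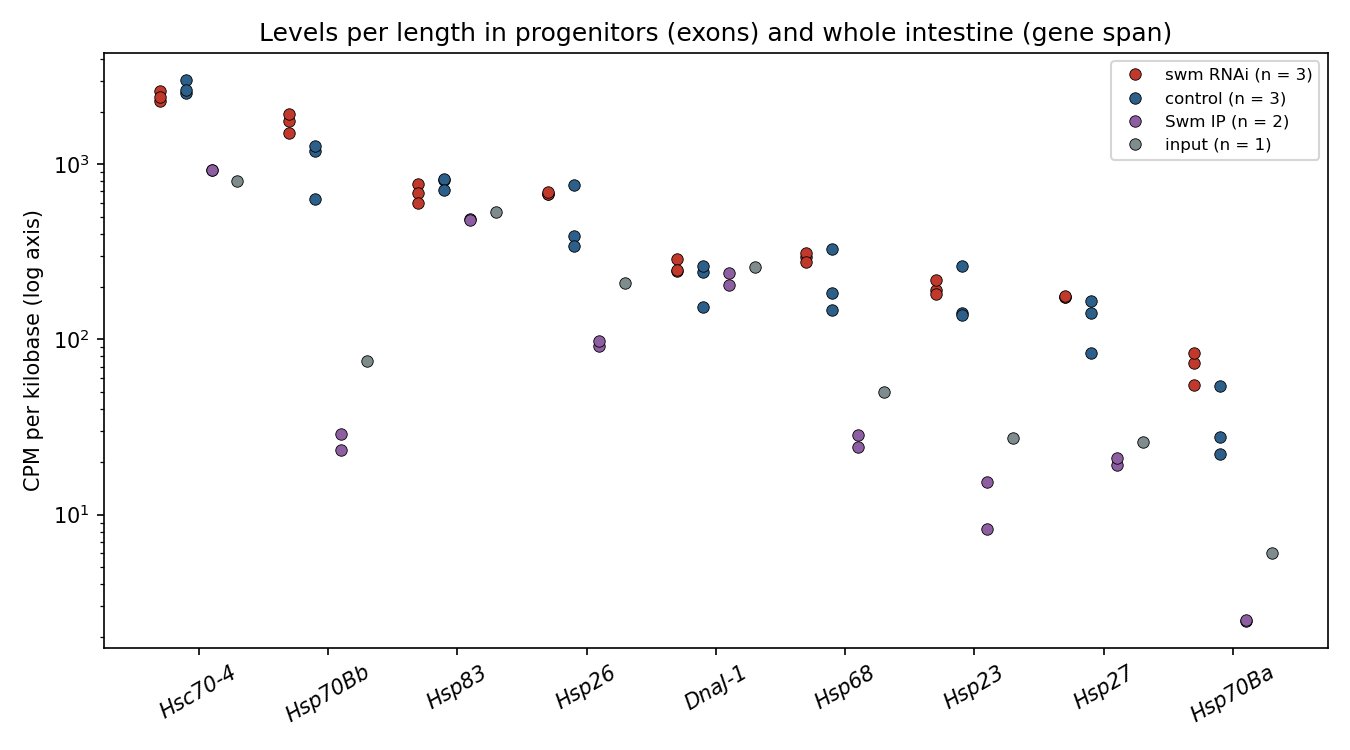
CPM per kilobase, on a log axis, of the 9 detected members in the libraries labelled swm RNAi, control, Swm IP and input (left to right for each gene; points are libraries). Hsp70Bb spans 632 to 1950 in the progenitor libraries, against 29.0 and 23.5 in the Swm IP libraries and 75.6 in the input, while Hsc70-4 spans 2303 to 3031, against 928 and 933 in the Swm IP libraries and 809 in the input.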

How the data were processed

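Raw counts of reads on each gene were deposited by the authors and are what was tested. The submitters' processing notes name STAR 2.7.3a, Subread 2.0.0 with featureCounts, cutadapt 2.9, SAMtools 1.10 and DESeq2. Genome build, annotation and strand setting were not given in the sources used. Lengths in the RNA-seq table matched the exons of BDGP6 and those in the CLIP-seq table the whole gene span, so intronic reads could enter the second. The authors' deposited tables give a log2 fold change and a p-value adjusted by them for each gene, quoted only where named, and 9 further per-sample columns in them were not used. A row with no gene name (1 per table, at most 5 counts in a library) was left out.

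The edgeR package (4.0.16, in R 4.3.3) was used for the tests (filterByExpr with minimum count 10, TMM scaling, robust quasi-likelihood fit, Benjamini-Hochberg adjustment over all genes tested, threshold 0.05). CPM use TMM-scaled library sizes. Only libraries of the 2 groups compared entered each fit. Since no label states that replicates are separate crosses, the p-values reflect only the spread of these libraries, which may be technical. The labels name no batch.

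The named genes are all 10 members, swm, the listed chaperone genes past the threshold (or the 2 most abundant tested genes of a list with none), the first 2 markers of each cell type, and the nearest gene to each member. Members and lists were chosen with earlier results of these data known. Alternatives were other scalings, DESeq2 1.42.0, other filters, the robust option off, a replicate block, each replicate left out, the Hsp70 copies summed, and for the IP a loess length correction (span 0.3) and a 2-fold rule (log2 CPM, prior count 2). Sequences of the members were not analysed here.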

Additional observations from a re-analysis of the deposited data

How the results depend on the processing

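In progenitors, the 208 genes called higher and 74 called lower became 320 and 155 with DESeq2 and 351 and 176 with no filter on low counts, where 1 and 2 members were called higher. Leaving out 1 library at a time gave 114 to 276 genes higher, 24 to 116 lower, 0 to 3 members higher and 0 lower. The log2 fold change of Hsp23 turned to -0.047 without control replicate 1 and to -0.031 without control replicate 3, and was 0.49 without control replicate 2. The labels do not say whether replicate numbers pair the libraries. Correlations of the deviations from group means were -0.06, -0.05 and 0.004 for the same number. They ran from -0.04 to 0.10 for different numbers, and cannot show whether libraries were prepared in pairs. The replicate block gave 211 genes higher and 76 lower, with 0 members called. In the IP, the 775 genes higher and 751 lower became 512 and 407 with DESeq2. With unscaled library sizes (all-gene median up by 0.28), 1114 genes were higher and 417 lower, and Hsp83 (0.14) and DnaJ-1 (0.067) turned positive. With the length trend removed, 130 genes were higher and 519 lower, 1 member was lower, Hsp27 (0.14) and DnaJ-1 (0.057) turned positive and lncRNA:Hsromega turned to -0.0017. The cause of these changes was not tested. Hsp70Bb kept its IP call under all 7 alternatives that tested it by itself, Hsp26 under 7 of 8 and Hsp68 under 4 of 8. No paired analysis was possible for the IP because the groups share a single replicate number, and leaving out an IP library leaves no residual degree of freedom, so those fits gave values with no test. The heat shock element alternatives were not run. Low counts limit Hsp70Ba and Hsp23 in the IP.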
